A study of Mus musculus and Rattus norvegicus with 6 samples.

Results

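The endothelin, angiotensin and natriuretic peptide systems set the tone of smooth muscle, and 10 of their genes were followed in mouse smooth muscle cells (SMCs) after knockdown of YAP and TAZ. The 10 genes were chosen by gene symbol from 55573 genes in the count table and encode ligands (Edn1, Nppb), converting enzymes (Ece1, Ace) and receptors (Ednra, Ednrb, Agtr1a, Npr1, Npr2, Npr3). All 10 had counts in each library and were tested. The series compared 2 libraries of SMCs given a control siRNA (siCo) with 2 libraries of SMCs given siRNAs against YAP and TAZ (siYAP/TAZ), in a search for genes under the control of both factors that bear on erectile function. The sample labels give MOVAS, an immortalised mouse aortic smooth muscle cell line of wild-type genotype, for both groups, whereas the figure legends speak of primary penile SMCs. Neither the time after transfection nor the siRNA mix of each siYAP/TAZ library is given in the sources used here. A legend for a qRT-PCR check of the sequenced RNA calls its samples biologically independent, but the labels do not say whether the libraries of a group are separate cultures. If they are not, p-values measure only how far these libraries differ, which may be technical.

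Libraries held 17192309 to 18751368 counts. Expression is given as FPKM, the count of a gene scaled by exonic length and library total, and differences as log2 fold changes of siYAP/TAZ against siCo from edgeR's quasi-likelihood test on the counts, with an adjusted p under 0.05 as the threshold. The targeted genes were measured first. Yap1 had 21.9 and 23.5 FPKM in the siCo libraries and 1.87 and 2.03 FPKM in the siYAP/TAZ libraries, and Wwtr1, which encodes TAZ, had 56.5 and 59.1 FPKM against 16.8 and 17.7 FPKM. The cell type label was then set against markers. All 11 smooth muscle markers had counts, with a summed level of 365 to 373 FPKM in siCo and 234 to 242 FPKM in siYAP/TAZ cells, and 7 of them fell, 1 rose and 3 did not pass. Acta2 was at 138 and 142 FPKM in siCo cells, but Myh11 was at 1.29 FPKM in both siCo libraries and Myocd, the myocardin gene, at 0.18 and 0.086 FPKM. All 10 endothelial markers were also detected, at a summed 115 to 116 FPKM in siCo and 143 to 149 FPKM in siYAP/TAZ cells, and 7 of them rose, 2 fell and 1 did not pass. None was at 0, and Cdh5, the adhesion molecule of endothelial junctions, was at 42.7 and 41.7 FPKM in siCo cells. All 6 fibroblast markers rose, from a summed 251 to 308 FPKM in siCo to 377 to 401 FPKM in siYAP/TAZ cells, with log2 fold changes from 0.19 (Col1a1) to 2.39 (Dpt). Of 8 macrophage markers 2 were tested, of which Lyz2 rose (log2 fold change 2.52) and Csf1r did not pass, while Adgre1, Tyrobp, C1qa and C1qb had no count in any library. Over all genes tested, 27.6% passed as higher and 27.7% as lower. The part of these cell types in the changes of the 10 genes was not tested. In such bulk libraries, fewer cells of a type and less RNA per cell cannot be told apart.

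Endothelin-1 is a strong constrictor peptide that is cut from its precursor by endothelin-converting enzyme and acts on smooth muscle through the type A receptor, which couples to phospholipase C and raises calcium in the cell. The type B receptor on endothelium releases nitric oxide and clears the peptide. Angiotensin-converting enzyme makes angiotensin II, which contracts smooth muscle through its type 1 receptor, and the enzyme also degrades bradykinin, a dilator. Natriuretic peptides work against both systems, since they relax smooth muscle through receptors that are themselves guanylyl cyclases and make cGMP. In erectile tissue, endothelin-1 and angiotensin II are known as signals that hold the smooth muscle contracted.

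All 10 genes passed the test, 7 of them higher and 3 lower in siYAP/TAZ cells. This has to be read against a broad change, since 55.4% of the 15479 genes tested passed, 27.6% as higher and 27.7% as lower. Ednra, Ace, Nppb, Agtr1a and Npr1 rose by at least 2-fold and Edn1 and Npr3 fell by at least 2-fold, which makes 7 of 10, where 10.3% of all genes tested passed with such a change (7.14% higher and 3.15% lower). Ece1, Npr2 and Ednrb changed by less. The median absolute log2 fold change was 1.59 over the 10 genes and 0.33 over all genes tested. The genes were chosen with earlier results of these data known, so these shares and medians describe the 10 genes only. Levels in the siYAP/TAZ libraries did not overlap those in the siCo libraries for any of the 10 genes, which held for 77.2% of all genes tested.

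**Figure D1:**
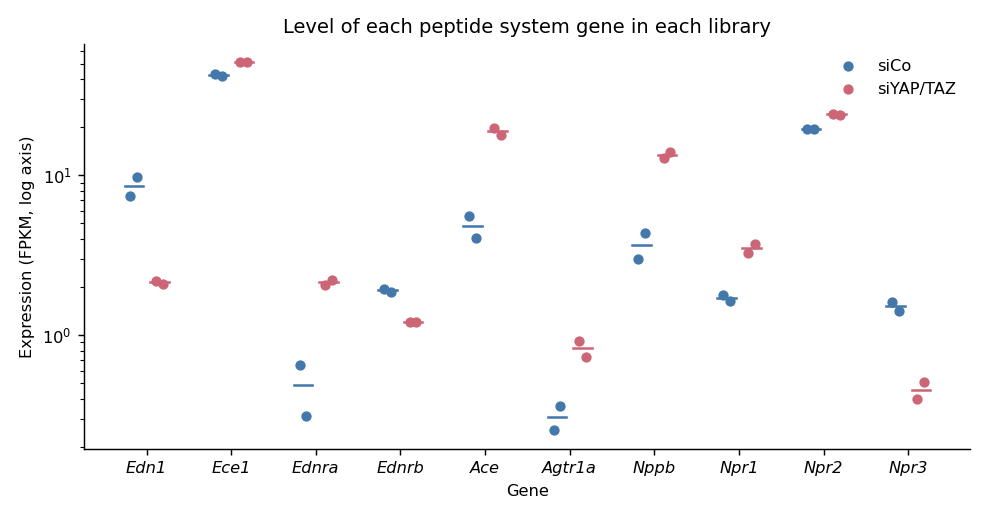
Expression of each of the 10 genes in FPKM on a log axis, with a point for each library (blue siCo, red siYAP/TAZ, 2 libraries each) and a bar at the group mean. The points of the groups are apart for all 10 genes. Edn1, Ednrb and Npr3 are lower in siYAP/TAZ cells, and the other 7 are higher.

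The levels spanned a wide range. In siCo cells, the order of mean FPKM was Ece1, Npr2, Edn1, Ace, Nppb, Ednrb, Npr1, Npr3, Ednra and Agtr1a, from 42.3 to 0.31 FPKM, and the libraries of Ace and Nppb overlapped, as did those of Ednra and Agtr1a. Ece1 lay above 91.5% and Agtr1a above 8.08% of the genes tested. In siYAP/TAZ cells, Ece1 and Npr2 remained the highest, followed by Ace, Nppb, Npr1, Edn1, Ednra, Ednrb, Agtr1a and Npr3, and the levels of Edn1 and Ednra overlapped. Edn1 moved from rank 3 to rank 6 and Npr3 from rank 8 to rank 10.

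The endothelin ligand fell. Edn1, which encodes the endothelin-1 precursor, lies on the plus strand of chromosome 13 from 42301476 to 42307990 (mm10). Its counts were 293 and 378 in siCo and 88 and 77 in siYAP/TAZ libraries, or 7.44 and 9.80 FPKM against 2.19 and 2.09 FPKM. Both siYAP/TAZ libraries lay far below the lower siCo library, and the log2 fold change was -1.96 (standard error 0.156, adjusted p = 6.47e-10 from edgeR), or 3.89-fold lower. In vessels, endothelial cells are the main source of this gene. The summed level of the endothelial markers was higher in siYAP/TAZ cells, whereas Emcn and Kdr among them fell by 0.41 and 0.22 on the log2 scale, and the part of endothelial RNA in the fall of Edn1 was not tested. The related ligand genes Edn2 and Edn3 had no count in any library.

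Because TEAD factors, the DNA-binding partners of YAP and TAZ, bind the MCAT element, the sequence upstream of the annotated start was searched for CATTCC on both strands (read as GGAATG on the other). RefSeq start sites of GRCm38.p6, the assembly also called mm10, were found for 9 of the 10 genes, in 13 windows of 250 bases. Some of these sites lay well inside the gene as annotated in the count table. The distance from the annotated start was 701 bases in Ednrb, 7244 bases in Ace, and 51321 and 58556 bases in Ece1. For Ednrb no other window was searched, so its sequence upstream of the annotated gene was not covered. The element was present in 2 of the 9 genes, Edn1 and Nppb, which moved in opposite directions. It was present in the windows of 14.4% of 27025 genes of the same table. A gene with more windows has more places for a match. Counted by window, the element was in 12.6% of 32851, and in 2 of the 13 windows searched here. The AP-1 element TGANTCA was in 0 of the 9 genes and in 7.82% of all genes. A match is a description of the letters and not of binding. The sequences of both genes that held the element are shown 5′ to 3′ on the plus strand, with the element in capitals.
Edn1, chr13:42301226-42301475: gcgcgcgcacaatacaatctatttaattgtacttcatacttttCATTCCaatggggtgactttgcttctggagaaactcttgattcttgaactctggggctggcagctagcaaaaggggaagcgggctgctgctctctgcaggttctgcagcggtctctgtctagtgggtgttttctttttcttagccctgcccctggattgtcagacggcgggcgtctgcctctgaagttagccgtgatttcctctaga
Nppb, chr4:147985650-147985817: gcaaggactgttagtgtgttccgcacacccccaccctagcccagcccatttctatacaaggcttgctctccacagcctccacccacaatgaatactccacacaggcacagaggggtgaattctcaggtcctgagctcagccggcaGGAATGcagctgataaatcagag
In Edn1 the element read CATTCC from 207 to 202 bases upstream of the start. In Nppb it read GGAATG from 105 to 100 bases upstream of the RefSeq start. The annotation of the count table starts Nppb at 147985788, 112 bases further upstream, which places the element just inside the gene, so 168 bases are shown.

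The converting enzyme and the receptors of endothelin moved in different ways. Ece1, the membrane metalloprotease that releases the active peptide, was the most abundant of the 10 genes (on the plus strand of chromosome 4 from 137862237 to 137965229), with 43.0 and 41.6 FPKM in siCo and 50.9 and 50.9 FPKM in siYAP/TAZ cells. This small difference exceeded the spread between libraries, with a log2 change of 0.31 (adjusted p = 2.39e-06 from edgeR, standard error 0.0428). Ednra encodes the type A receptor that mediates contraction and is found on the minus strand of chromosome 8 from 77663031 to 77724464. It had 66 and 31 counts in siCo and 212 and 209 counts in siYAP/TAZ libraries, or 0.65 and 0.31 FPKM against 2.06 and 2.22 FPKM. The siYAP/TAZ libraries were close to each other, whereas siCo replicate 1 held more than 2 times the counts of siCo replicate 2. The log2 fold change was 2.18 (standard error 0.212, adjusted p = 1.57e-08 from edgeR), or 4.54-fold higher. Leaving out siCo replicate 1 gave 2.81, and leaving out siCo replicate 2 gave 1.75. The fibroblast marker Dpt was also higher in siCo replicate 1 than in siCo replicate 2, with 57 and 21 counts, and had 201 and 190 counts in siYAP/TAZ libraries. The other fibroblast markers differed less between the siCo libraries, from 21 and 20 counts (Pi16) to 17269 and 13070 counts (Col1a1). The part of fibroblast RNA in the level of Ednra was not tested. Ednrb encodes the type B receptor (on the minus strand of chromosome 14 from 103814625 to 103844402) and had 153 and 143 counts against 96 and 89 counts, or 1.95 and 1.86 FPKM against 1.20 and 1.21 FPKM. Its log2 fold change was -0.61 (standard error 0.162, adjusted p = 0.00289 from edgeR), and it did not pass in DESeq2, with an adjusted p of 0.0569.

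These changes turned the order of the receptors. Ednra made up 25.2% and 14.4% of the summed FPKM of both receptors in the siCo libraries and 63.2% and 64.7% in the siYAP/TAZ libraries, so that Ednrb was the more abundant transcript in siCo cells and Ednra in siYAP/TAZ cells. The sum changed less, from 2.60 and 2.17 FPKM to 3.26 and 3.43 FPKM. The log2 ratio of Ednra to Ednrb per exon length was -2.06 ± 0.69 (SD, n = 2) in siCo and 0.82 ± 0.062 (SD, n = 2) in siYAP/TAZ cells, a difference of 2.88. The exact two-sided permutation p was 0.333, the smallest that 2 libraries against 2 allow, and the same after adjustment over the 3 ratios compared.

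**Figure D2:**
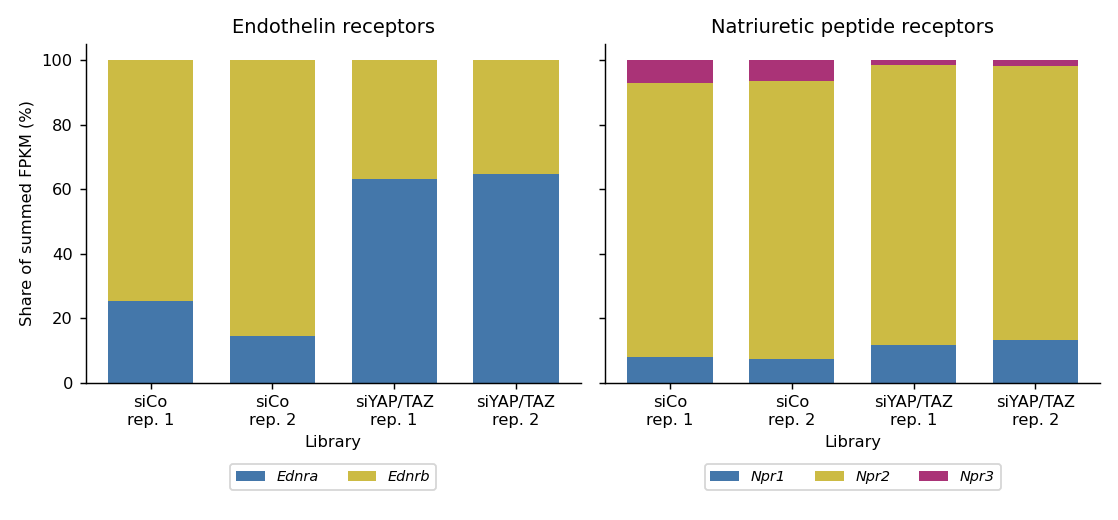
Share of each receptor gene in the summed FPKM of its family, in percent, for each of the 4 libraries. Ednra takes 14.4% to 25.2% of the endothelin receptors in siCo and 63.2% to 64.7% in siYAP/TAZ libraries, and Npr3 shrinks from 6.33% to 7% of the natriuretic peptide receptors to 1.43% to 1.80%.

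In the angiotensin system, the enzyme gene Ace and the receptor genes Agtr1a and Agtr2 rose. Ace encodes angiotensin-converting enzyme and is found on the plus strand of chromosome 11 from 105967945 to 105989964. It had 538 and 386 counts in siCo and 1952 and 1635 counts in siYAP/TAZ libraries, or 5.53 and 4.05 FPKM against 19.7 and 18.0 FPKM. The lower siYAP/TAZ library was more than 3 times the higher siCo library. The log2 fold change was 2.02 (standard error 0.0884, adjusted p = 4.53e-14 from edgeR), or 4.06-fold higher. Ace is a gene of endothelial cells in vessels, and of the endothelial markers Tek had a log2 fold change of 1.46 and Cdh5 one of 0.12, while Emcn and Kdr fell. The part of endothelial RNA in the rise of Ace was not tested.

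Agtr1a encodes the main type 1 angiotensin receptor of rodents (on the plus strand of chromosome 13 from 30336441 to 30382867) and was the least abundant of the 10 genes in siCo cells. It had 13 and 18 counts in siCo and 48 and 35 counts in siYAP/TAZ libraries, or 0.25 and 0.36 FPKM against 0.92 and 0.73 FPKM. All 4 values were below 1 FPKM, and the log2 fold change was 1.47 with the largest standard error of the 10 genes (0.354, adjusted p = 0.00129 from edgeR). Its near-identical copy Agtr1b had 3 and 5 counts in siCo and 0 and 0 counts in siYAP/TAZ libraries and was too low to be tested. Counting uniquely mapped reads drops those that fit both copies, so the counts of Agtr1a and Agtr1b are uncertain.

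The type 2 receptor gene had a larger fitted change than any of the 10 genes. Agtr2, whose product opposes the type 1 receptor in many tissues, had 29 and 13 counts in siCo and 286 and 239 counts in siYAP/TAZ libraries, or 0.47 and 0.22 FPKM against 4.59 and 4.18 FPKM. Its log2 fold change was 3.70 (standard error 0.221, adjusted p = 6.29e-12 from edgeR), and it was 4.37 without siCo replicate 1. In siYAP/TAZ cells Agtr2 thus exceeded Agtr1a in FPKM in each library. Of 13 other genes of the angiotensin system that were listed, 8 could be tested, of which 6 rose, 0 fell and 2 did not pass. Over all genes tested, 27.6% passed as higher and 27.7% as lower. Enpep, the aminopeptidase that trims angiotensin II, had 0.74 and 0.67 FPKM in siCo and 3.13 and 3.06 FPKM in siYAP/TAZ cells. Its log2 fold change was 2.18, and that of Anpep, the aminopeptidase for the next step, was 1.34, with the larger adjusted p being 1.14e-10 from edgeR. Agtrap, which binds the type 1 receptor and promotes its uptake, had a log2 fold change of 0.70 (adjusted p = 2.91e-09 from edgeR), and Atp6ap2, the prorenin receptor and a subunit of the vacuolar proton pump, one of 0.27 (adjusted p = 5.65e-05 from edgeR). The precursor gene Agt was at 0.23 to 0.74 FPKM and did not pass (log2 fold change 0.90, adjusted p = 0.0935 from edgeR), and Ren1 had no count in any library.

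**Figure D3:**
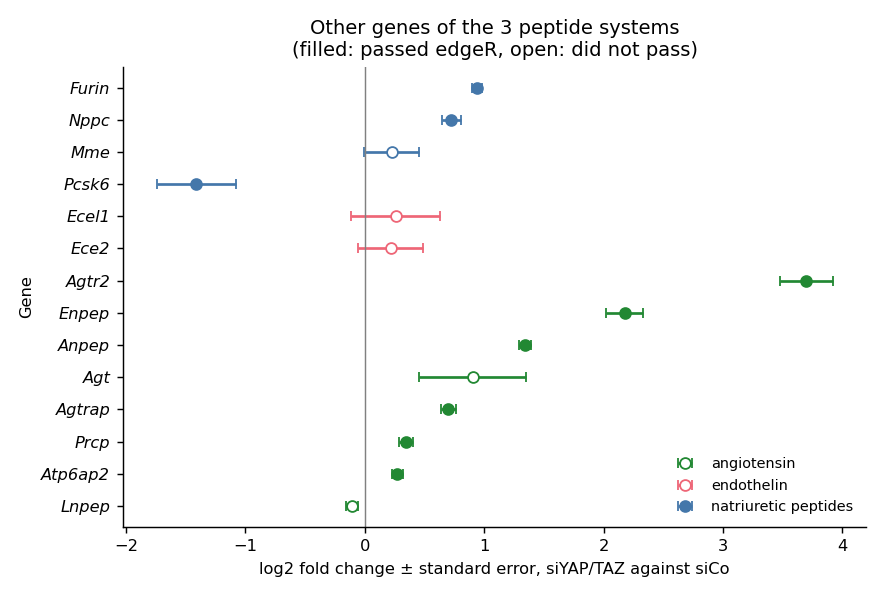
log2 fold change of siYAP/TAZ against siCo with its standard error for the 14 tested genes of the 3 peptide systems that are not among the 10, coloured by system. Agtr2 lies farthest to the right at 3.70 and Pcsk6 to the left at -1.41, and filled points passed edgeR's test.

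Among the natriuretic peptide genes, the ligand rose. Nppb encodes the precursor of B-type natriuretic peptide, a cardiac hormone that relaxes vessels, and is found on the plus strand of chromosome 4 from 147985788 to 147987205. It had 43 and 61 counts in siCo and 189 and 187 counts in siYAP/TAZ libraries, or 2.99 and 4.33 FPKM against 12.9 and 13.9 FPKM. The siYAP/TAZ libraries were close to each other and far above both siCo libraries. The log2 fold change was 1.92 (standard error 0.187, adjusted p = 1.66e-08 from edgeR), or 3.77-fold higher. Markers of cardiac muscle, the usual source of this gene, were near 0, with a summed 0.68 to 0.69 FPKM over 8 genes in siCo and 0.96 to 1.00 FPKM in siYAP/TAZ cells, none of the 4 tested passing, and no count of Myl7 in any library. Nppa, the atrial ligand gene next to Nppb, had 0 to 3 counts per library and was not tested. Nppc, the ligand gene for the receptor encoded by Npr2, was the most abundant ligand gene of the 3 systems, with 22.7 and 20.97 FPKM in siCo and 35.3 and 34.7 FPKM in siYAP/TAZ cells (log2 fold change 0.73, adjusted p = 1.19e-07 from edgeR).

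The receptor genes of this system did not move one way. Npr1 encodes the guanylyl cyclase receptor for the atrial and B-type peptides (on the minus strand of chromosome 3 from 90450591 to 90465866) and had 1.78 and 1.63 FPKM in siCo and 3.26 and 3.73 FPKM in siYAP/TAZ cells. It rose by 1.07 on the log2 scale (standard error 0.127, adjusted p = 2.96e-07 from edgeR). Npr2 encodes the guanylyl cyclase receptor for the C-type peptide (on the plus strand of chromosome 4 from 43631935 to 43651244) and had 19.5 and 19.4 FPKM against 24.3 and 24.0 FPKM, a log2 change of 0.35 (adjusted p = 2.76e-06 from edgeR, standard error 0.0492). Npr3 encodes the clearance receptor, which takes up natriuretic peptides and has no guanylyl cyclase, and is found on the minus strand of chromosome 15 from 11839896 to 11907287. It had 277 and 241 counts in siCo and 70 and 82 counts in siYAP/TAZ libraries, or 1.60 and 1.42 FPKM against 0.40 and 0.51 FPKM. Both siYAP/TAZ libraries were well below both siCo libraries, and the log2 fold change was -1.70 (standard error 0.158, adjusted p = 7.68e-09 from edgeR), or 3.25-fold lower.

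Npr2 dominated the family throughout, with 85.0% to 86.9% of the summed FPKM of the 3 receptors in all 4 libraries. Npr1 made up 7.27% to 7.79% in siCo and 11.7% to 13.2% in siYAP/TAZ libraries, and Npr3 6.33% to 7% against 1.43% to 1.80%. The log2 ratio of Npr1 to Npr2 differed between the groups by 0.72 and that of Npr3 to Npr2 by -2.05, each with an exact two-sided permutation p of 0.333, the smallest this design allows. Of 7 other genes of the natriuretic peptide system, 4 could be tested. Furin, a protease that cuts the precursors of natriuretic peptides and of endothelin, had a log2 fold change of 0.94 (28.2 and 28.9 FPKM in siCo, 53.1 and 53.4 FPKM in siYAP/TAZ cells, adjusted p = 5.26e-14 from edgeR). Pcsk6, a related protease, fell by 1.41 on the log2 scale (adjusted p = 0.00112 from edgeR) at a level under 1 FPKM. Mme, the protease neprilysin that degrades natriuretic peptides, had a log2 fold change of 0.23 and did not pass (adjusted p = 0.425 from edgeR).

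**Figure D4:**
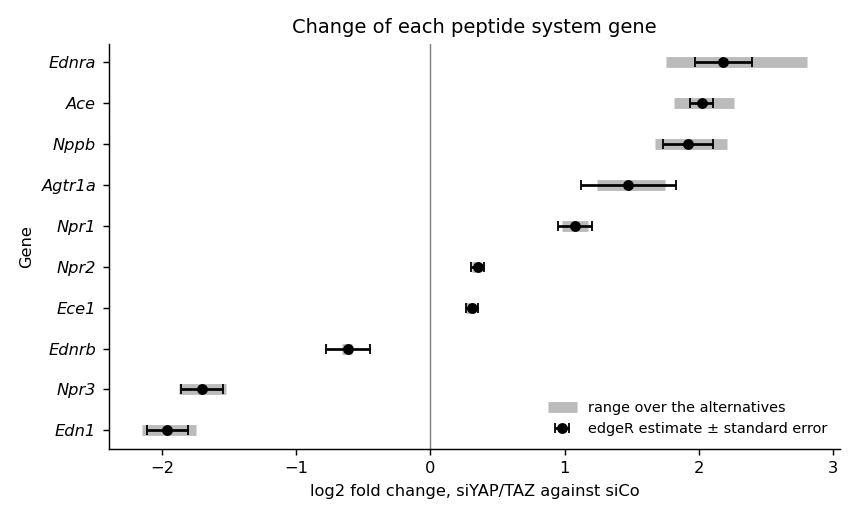
log2 fold change of siYAP/TAZ against siCo for each of the 10 genes (points, edgeR, with standard error) and the lowest and highest value over the 9 alternative settings (grey bars). Ednra has the widest grey bar, from 1.75 to 2.81, and no bar reaches 0.

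Of all 24 other genes listed for the 3 systems, 14 were tested, of which 8 rose, 1 fell (Pcsk6) and 5 did not pass, with a median log2 fold change of 0.52. Lnpep, an aminopeptidase with angiotensin IV as ligand, did not pass (log2 fold change -0.11, adjusted p = 0.0651 from edgeR). Of 29 genes that couple these receptors to contraction or relaxation, 28 were tested, of which 13 rose, 5 fell and 10 did not pass. Their median was 0.13 beside -0.00033 over all genes tested. Both lists have to be read against all genes tested, of which 27.6% passed as higher and 27.7% as lower. Of the G protein subunits, Gna11 and Gna13 rose and Gnaq and Gna12 did not pass, with log2 fold changes between -0.08 and 0.24 and an adjusted p of 0.00638 from edgeR for Gna11. The largest changes among the coupling genes of at least 1 FPKM were those of Rhob, which encodes a small GTPase, and Rock2, which encodes a kinase that raises the calcium sensitivity of contraction. Rhob had 66.7 and 67.1 FPKM in siCo and 157 and 161 FPKM in siYAP/TAZ cells, a log2 fold change of 1.29. Rock2 had 26.6 and 27.9 FPKM against 15.4 and 15.1 FPKM, a log2 fold change of -0.80. Itpr1, a calcium release channel opened by IP3, fell by 0.41 on the log2 scale. The receptor kinase genes Grk5 and Grk6 fell by 0.43 and 0.40 on the log2 scale, and Arrb1, an arrestin, rose by a log2 fold change of 0.72. Of Rhob, Rock2, Itpr1, Grk5, Grk6 and Arrb1, Grk5 had the largest adjusted p, 5.08e-05 from edgeR. Downstream of cGMP, all 5 listed genes passed, with 4 higher and 1 lower, where 55.4% of all genes tested passed. Only 2 of the 5 reached 1 FPKM in any library. The 5 included Prkg1 and Prkg2, the cGMP-dependent kinases, with log2 fold changes of 0.44 and 0.29, and Prkg1 was at 0.64 to 0.94 FPKM. Pde5a, the target of PDE5 inhibitors, had a log2 fold change of 0.28. The largest adjusted p of these 3 genes was 0.0267 from edgeR.

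Reads of overlapping genes on the other strand cannot be told apart where the strand setting of the counting is not stated. Of the antisense genes that overlap the 10, Gm12473, which shares 266 exonic bases with Npr2, held 65 to 88 counts, against 1636 to 2122 counts of Npr2, and the others held 7 counts or fewer. More exonic bases were shared in Npr1 (559), Npr3 (321) and Ace (295). How reads that fit 2 genes were counted is not stated. Low counts of the antisense genes therefore do not show how many reads of the 10 genes were affected.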

How the data were processed

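Only the bulk RNA-seq of cultured mouse SMCs was used (2 siCo and 2 siYAP/TAZ libraries), and both rat single-nucleus samples were left out. The authors deposited raw counts per Ensembl gene together with FPKM values. The submitters' processing notes name Trimmomatic, HISAT2 and mm10, and the methods for tissue add featureCounts on uniquely mapped reads. Their versions, the strand setting and the Ensembl release: not given in the sources used here. Rows that name no gene (57 of 55630, holding 0 counts) were dropped. FPKM was computed from count, exonic length and library total, which met the deposited FPKM of both siCo libraries within 0.00501 for 55573 genes. The other 2 FPKM columns were not used, and the siYAP/TAZ columns name their group without naming a sample. Replicates were not duplicates, since they differed beyond sampling noise (mean chi-square per gene 3.34 for siCo and 2.00 for siYAP/TAZ, where 1 would be sampling noise). The 10 genes have the same start and end in GENCODE M21.

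Counts were tested with edgeR 4.0.16 (R 4.3.3), using TMM, filterByExpr at its minimum count of 10, the quasi-likelihood test on group alone and Benjamini-Hochberg adjustment over all genes tested at a threshold of 0.05. Its spread had 18.6 prior and 2 residual degrees of freedom. The standard error is the absolute log2 fold change over the square root of F. Receptor ratios were compared by an exact permutation test, with 0.5 added to each count. The alternatives were DESeq2 1.42.0, scaling by library totals, weaker and stricter filters, a replicate block and omission of each library. The fit was tested on simulated data in which far fewer genes changed than passed here, so that test does not cover a change this broad.

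All 10 genes are named, and of each other list up to 6 called genes with the largest change, at least 1 FPKM and groups that do not overlap, with ligands and receptors of 1 FPKM or more. Other genes (Agtr1b, Agt, Ren1, Edn2, Edn3, Nppa, Pcsk6, Mme, Lnpep, the G protein subunits, the cGMP kinases, Pde5a, Aplnr, Ramp1, Ramp2 and single markers) were named after their values were seen. Results of some listed genes are not reported here. The genes, lists and tests were chosen with earlier results of these data known. Promoter sequences are from RefSeq on GRCm38.p6. Figures were drawn with matplotlib 3.10.9 in Python 3.11.15.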

Additional observations from a re-analysis of the deposited data

How the results depend on the processing

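Of the 10 genes, 7 were higher under each of the 9 alternatives, and 3 were lower except in DESeq2, where 2 were lower because Ednrb had a log2 fold change of -0.62 and an adjusted p of 0.0569. None of the 10 changed direction. Leaving out siCo replicate 1 raised the log2 fold change of Ednra from 2.18 to 2.81 and that of Agtr2 from 3.70 to 4.37. Of the other genes of the 3 systems, 1 was lower, and 2 were lower with scaling by library totals and with the replicate block, and 1 to 2 when each library was left out in turn. Of the coupling genes, 13 were higher and 5 lower, and 10 were higher and 4 lower in DESeq2. Of the genes of other peptides that act on vascular tone, 6 were higher and 5 lower, and 6 were higher and 4 lower in DESeq2. Over all genes, DESeq2 called 3042 higher and 3134 lower. The cause of these shifts was not tested. The deposited columns carry numbers that are not known to pair the samples, and the deviations of siCo replicate 1 and siYAP/TAZ replicate 1 from their group means correlated with r = 0.0077, so the replicate block rests only on a number. It gave 4440 genes higher and 4428 lower, against 4279 and 4290 without it. The difference in the log2 ratio of Ednra to Ednrb was 2.39 to 3.37 when each library was left out, and 2.62 on the scale of FPKM + 0.1. With 2 libraries a group, outlying samples could not be looked for. Among the 10 genes, low counts limit Agtr1a, Ednra and Nppb most, with 13 to 66 counts in siCo libraries. The same limit holds for Agtr2, with 29 and 13 counts in siCo libraries.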

Other observations

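Other peptides that act on vascular tone, and their receptors, moved in both directions. Over all genes tested, 27.6% were higher and 27.7% lower. Of 34 listed genes 19 were tested, of which 6 were higher, 5 were lower and 8 did not pass, with a median log2 fold change of -0.08. The largest decreases among them were those of Adm, which encodes the dilator adrenomedullin, with a log2 fold change of -2.86, and of Apln, which encodes the dilator apelin. Apln had 14.7 and 15.6 FPKM in siCo and 2.71 and 2.71 FPKM in siYAP/TAZ cells, a log2 change of -2.44 (adjusted p = 4.85e-15 from edgeR, standard error 0.0929). The apelin receptor gene Aplnr had 0 to 5 counts per library and was not tested. Adcyap1r1, a receptor for the dilator peptide PACAP, had 6.06 and 7.22 FPKM against 2.22 and 2.03 FPKM (log2 fold change -1.59).

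Receptors for dilator peptides were among the genes that rose. Calcrl, the receptor for adrenomedullin and calcitonin gene-related peptide, had 8.85 and 8.70 FPKM in siCo and 20.8 and 21.05 FPKM in siYAP/TAZ cells (log2 fold change 1.30), and of the genes for its accessory proteins Ramp2 rose (log2 fold change 0.97), Ramp3 fell (log2 fold change -1.25) and Ramp1 fell from 0.61 and 0.61 FPKM to 0.32 and 0.27 FPKM. Bdkrb1, a receptor of kinins, which angiotensin-converting enzyme degrades, had 3.90 and 3.56 FPKM against 8.40 and 9.77 FPKM (log2 fold change 1.33). Of the 8 genes named here that passed the test, Ramp1 had the largest adjusted p, 0.0248 from edgeR. Ramp1 held only 14 to 34 counts per library, and the 4 listed genes that were lower in DESeq2 did not include it.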
